A study of Mus musculus with 6 samples.

Results

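Glycerolipid assembly, the building of diacylglycerol and triglyceride from a glycerol backbone and fatty acids, was followed in mouse liver by the transcripts of 9 enzymes, out of 12393 genes tested. They were taken by gene symbol: Gpam, Agpat1, Agpat3, Lpin1, Lpin2, Mogat1, Mogat2, Dgat1 and Dgat2. All 9 were found in the platform annotation, with 15 probe sets, and the probe set with the highest mean over the 6 arrays stands for each gene. The 6 mice were labelled Ppara KO on a C57 background and were 1 month old. Ppara encodes a nuclear receptor that drives fatty acid oxidation genes, and its loss was shared by the controls. In 3 mice the liver had been injected with an adenovirus to overexpress TFEB, which activates genes of lysosomes and autophagy, and 3 mice were not injected. The controls received no vector, so TFEB and the adenovirus cannot be told apart, and no label gives the time since injection. The series title describes the overexpression as liver-specific.

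Triglyceride can be made by either of a pair of routes that meet at diacylglycerol. In the glycerol phosphate route, a glycerol phosphate acyltransferase, an acylglycerol phosphate acyltransferase and a lipin phosphatase act in turn on glycerol 3-phosphate. In the monoacylglycerol route, a monoacylglycerol acyltransferase adds an acyl chain directly to monoacylglycerol, a step best known from the uptake of dietary fat in the intestine. A diacylglycerol acyltransferase then completes triglyceride in both cases. The comparison asks how the transcripts of each route differ between injected and not-injected livers.

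Across all genes, pairs of not-injected arrays correlated at 0.998 to 0.999, pairs of injected arrays at 0.995 to 0.998, and pairs of unlike treatment at 0.989 to 0.993. The Tfeb probe set read 7.51 to 7.63 in not-injected and 7.46 to 7.69 in injected livers, and the Ppara probe set 8.87 to 9.01 and 9.04 to 9.12. The labels state neither the species of the vector's TFEB nor the deleted part of Ppara, so neither probe set checks the labels. Hepatocyte markers such as Alb (14.94 to 15.03 over the 6 arrays) and Ttr (14.86 to 14.88) were high in every liver. Of 7 hepatocyte markers 0 rose and 1 fell, where 9.99% of all genes rose and 7.92% fell. The 1 that fell was Tat, for the amino acid enzyme tyrosine aminotransferase (-0.49 ± 0.05 SE; limma, adjusted p = 6.17e-04). The median log2 change of the 7 markers was -0.08. Their summed linear level ran from 140531 to 140726 in not-injected and from 133041 to 138182 in injected livers, and the part of this difference in the results was not tested. In bulk liver RNA, a change in the number of cells of a type and a change in RNA per cell cannot be told apart. Levels are deposited log2 values, and changes are injected minus not-injected. "Rose" and "fell" mark genes with an adjusted p under 0.05 over all genes (limma, Benjamini-Hochberg).

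The largest difference among the 9 genes lay in the monoacylglycerol route, in Mogat2, which rose 3.35-fold. The phosphatidate phosphatase genes Lpin1 and Lpin2 and the acyltransferase gene Agpat3 rose by 1.22-fold or less, and Mogat1 fell 1.16-fold. The entry enzyme gene Gpam, Agpat1 and both diacylglycerol acyltransferase genes did not pass the test. In counts, 4 of the 9 genes rose, against 9.99% of all genes tested, and 1 fell, against 7.92%. The groups did not overlap in 5 genes that were higher in every injected liver (18.2% of all genes) and in 1 that was lower (18.9%). The median log2 change was 0.07 over the 9 genes and -0.01 over all genes.

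**Figure D1:**
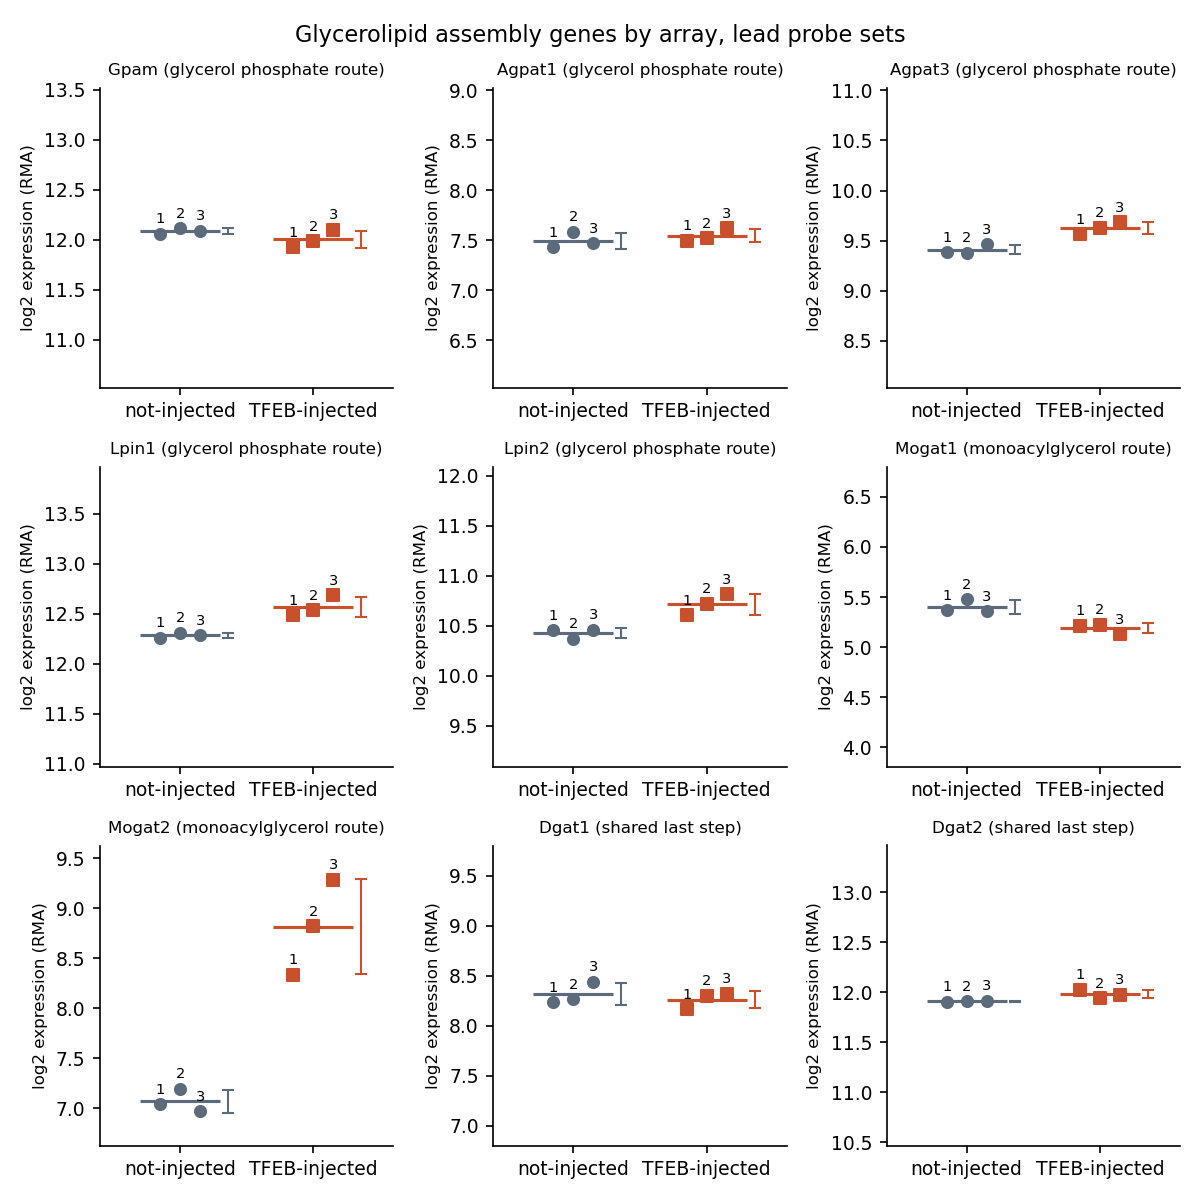
Deposited log2 expression (y axis, RMA) of the lead probe set of each of the 9 genes in 3 not-injected (circles) and 3 TFEB-injected (squares) livers, numbered by replicate; lines are group means, bars 1 SD, and every panel spans 3 log2 units. Mogat2 runs from 6.97 to 7.20 in not-injected and from 8.34 to 9.29 in injected livers, while the other 8 genes move by less than 0.3.

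Mogat2 encodes the monoacylglycerol acyltransferase of the small intestine. Its probe set read 7.04, 7.20 and 6.97 in not-injected replicates 1, 2 and 3, and 8.34, 8.82 and 9.29 in injected replicates 1, 2 and 3. Every injected liver lay above every not-injected liver, and the injected livers were spread more widely (SD 0.47 against 0.12, n = 3 each). The means were 7.07 and 8.82, a log2 change of 1.75 ± 0.21 (SE; limma, adjusted p = 0.00165). The call held with any 1 array left out, with log2 changes between 1.51 and 1.98 and adjusted p between 3.35e-04 and 0.0112.

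Mogat1, the other monoacylglycerol acyltransferase gene measured, is known to rise in fatty liver. It gave 5.37, 5.48 and 5.36 in not-injected and 5.21, 5.22 and 5.13 in injected replicates 1, 2 and 3. All of these Mogat1 values lay below the array medians of 6.92 to 6.93. The groups did not overlap, but the gap between the nearest arrays was small next to that of Mogat2. The log2 change was -0.21 ± 0.05 (SE, n = 3; limma, adjusted p = 0.0346). This call was lost when any 1 of the 6 arrays was left out, with adjusted p between 0.0552 and 0.108, and after cyclic loess scaling (adjusted p = 0.0731). Each of these genes has 1 probe set, and their changes had opposite signs.

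Mogat2 is an intestinal enzyme, so enterocyte markers are given beside it. Of 6 measured, Apoa4 rose (1.01 ± 0.05 SE; limma, adjusted p = 7.96e-05), an apolipoprotein gene that mouse liver also expresses. Vil1, for the brush border protein villin, read 4.87 to 4.98 in not-injected and 4.59 to 4.94 in injected livers. The lactase gene Lct read 5.14 to 5.38 and 5.30 to 5.31, and the intestinal transcription factor gene Cdx2 read 6.48 to 6.57 and 6.17 to 6.59. The summed linear level of the 6 markers ran from 9455 to 9573 in not-injected and from 16175 to 17778 in injected livers. Most of this sum is Apoa4, which read 12.76 to 12.79 in not-injected and 13.73 to 13.89 in injected livers. Apoa4 was the 1 marker of the list that passed. Fabp2, for the intestinal fatty acid binding protein, was higher in every injected liver, at 11.07 to 11.14 against 11.18 to 11.19, and did not pass (0.07 ± 0.04 SE; limma, adjusted p = 0.320). Muc13, for a mucin, read 6.63 to 6.65 and 6.51 to 6.80. The part of enterocyte RNA in the Mogat2 value was not tested.

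In the glycerol phosphate route, 3 of 5 genes rose and 0 fell, against 9.99% and 7.92% of all genes, with a median log2 change of 0.22. Gpam encodes the mitochondrial acyltransferase that starts the route. It read 12.06, 12.12 and 12.09 in not-injected and 11.93, 11.99 and 12.10 in injected replicates 1, 2 and 3. The groups overlapped, and the log2 change of -0.09 had a 95% interval from -0.22 to 0.05 (limma, adjusted p = 0.354). Its second probe set gave -0.06.

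Agpat1 and Agpat3 encode enzymes that add an acyl chain to lysophosphatidate. The level of Agpat3 was 9.39, 9.38 and 9.46 in not-injected and 9.56, 9.63 and 9.68 in injected replicates 1, 2 and 3, without overlap. It rose by 0.22 ± 0.05 on the log2 scale (SE, n = 3; limma, adjusted p = 0.0268), or 1.16-fold. Agpat1 overlapped between groups, at 7.43, 7.59 and 7.47 against 7.50, 7.52 and 7.62. Its log2 change was 0.05, with a 95% interval from -0.09 to 0.19, and its second probe set gave -0.04.

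The lipins remove phosphate from phosphatidate to give diacylglycerol, and lipin 1 is also known as a nuclear coactivator of fatty acid oxidation genes. Lpin1 read 12.26, 12.31 and 12.29 in not-injected and 12.49, 12.54 and 12.68 in injected replicates 1, 2 and 3. The groups were apart, and the log2 change was 0.28 ± 0.06 (SE, n = 3; limma, adjusted p = 0.0176), or 1.22-fold. Its second probe set gave 0.16 (adjusted p over all probe sets = 0.0547), also without overlap, at 12.03 to 12.06 against 12.17 to 12.24.

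Lpin2 encodes lipin 2, the other liver lipin measured here. It read 10.46, 10.37 and 10.46 in not-injected and 10.61, 10.72 and 10.82 in injected replicates 1, 2 and 3, again without overlap. The log2 change was 0.28 ± 0.06 (SE, n = 3; limma, adjusted p = 0.0212), or 1.22-fold. Its other probe sets gave 0.27 and 0.18, with adjusted p over all probe sets of 0.0559 and 0.279. The third of these overlapped between groups, at 7.79 to 7.93 against 7.88 to 8.26. With the mean of its probe sets, Lpin2 changed by 0.24 and the call was lost (adjusted p = 0.0707).

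**Figure D2:**
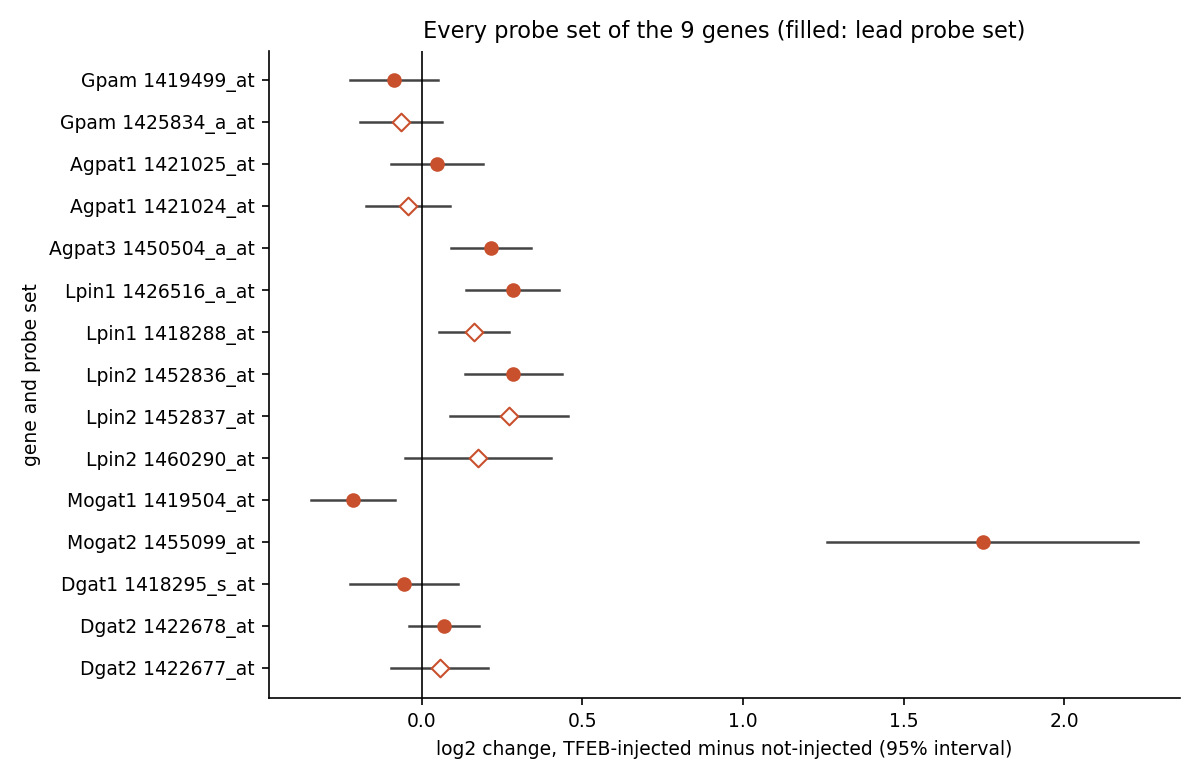
Log2 change, TFEB-injected minus not-injected (x axis), with its 95% interval for each of the 15 probe sets of the 9 genes, from 3 arrays a group; filled circles are lead probe sets and open diamonds the others. The changes of the Lpin1 and Lpin2 probe sets are all above 0 (the interval of the third Lpin2 probe set includes it), those of Gpam lie below 0 with intervals that include it, and Mogat2 at 1.75 stands apart.

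The calls of Agpat3, Lpin1 and Lpin2 depended on which arrays were kept. When not-injected replicate 1, not-injected replicate 2 or injected replicate 2 was left out, Mogat2 was the 1 gene of the 9 that still rose. With not-injected replicate 3 left out the genes that rose were Mogat2 and Agpat3, and with injected replicate 1 or 3 left out all 4 rose. The highest adjusted p with 1 array left out was 0.0993 for Agpat3, 0.0714 for Lpin1 and 0.0814 for Lpin2, and their log2 changes stayed above 0, between 0.19 and 0.34.

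**Figure D3:**
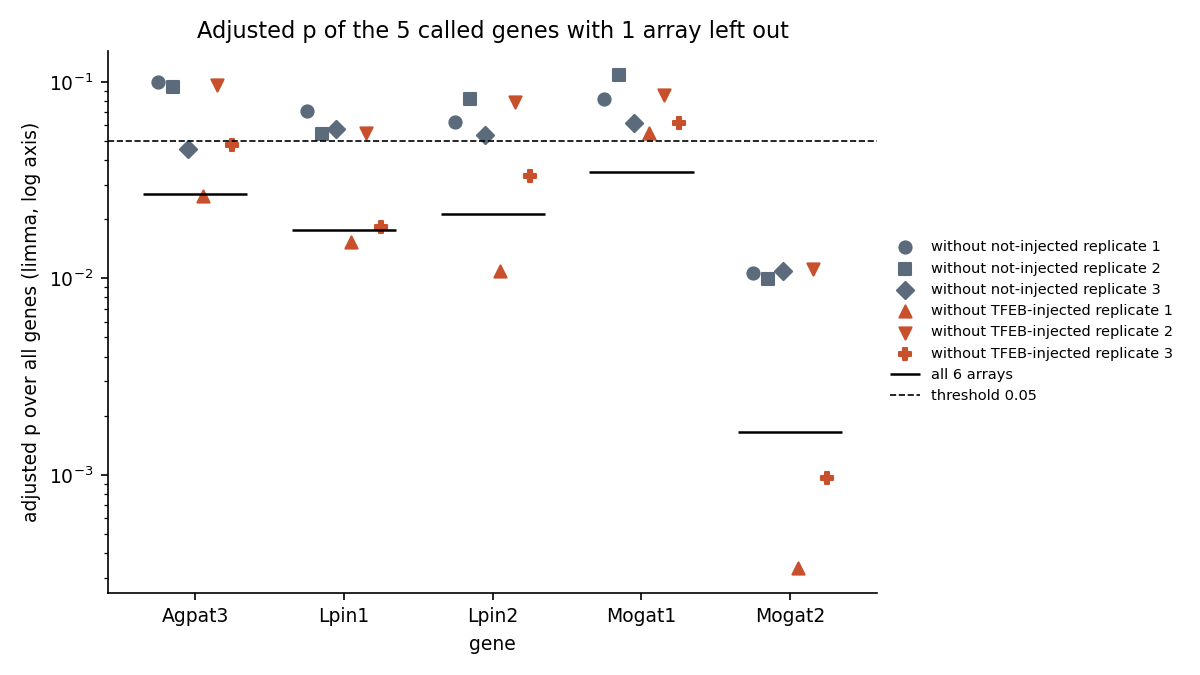
Adjusted p over all genes (limma, log axis) of the 5 genes that passed, with all 6 arrays (bars) and with each array left out in turn (symbols); the dashed line is the threshold of 0.05. Mogat2 stays under the line throughout, at 0.0112 or less, while Mogat1 lies under it with all 6 arrays (0.0346) and above it with any array left out.

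Promoter sequences of the genes that passed show what lies at their starts, since the vector carried a factor that binds the E-box CACGTG. RefSeq promoters (GRCm38.p6, 250 bases before and 50 from the start on) were found for 6 of the 9 genes, 10 promoters in all; Mogat2, Dgat1 and Dgat2 had no entry. The letters CACGTG, searched on both strands (the motif is its own reverse complement), occurred in 1 of the 10, against 7.15% of all 32851 promoters in the table. It was at the most upstream of the 3 Lpin2 starts, and in the longer form TCACGTG, which contains CACGTG and occurred in 3.77% of all promoters on either strand. The 7 bases of that match began 10 bases before the start. The last 100 bases before the start are given 5′ to 3′ for the 4 genes that passed and had an entry, with TCACGTG in capitals. They lie at chr17:71183432-71183531 (plus strand) for Lpin2, chr12:16610967-16611066 (minus strand) for Lpin1, chr10:78351701-78351800 (minus strand) for Agpat3 and chr1:78510960-78511059 (plus strand) for Mogat1.
Lpin2: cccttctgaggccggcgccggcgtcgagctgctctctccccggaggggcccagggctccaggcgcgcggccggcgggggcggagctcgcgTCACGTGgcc
Lpin1: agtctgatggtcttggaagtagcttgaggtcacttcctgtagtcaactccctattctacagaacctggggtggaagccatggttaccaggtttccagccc
Agpat3: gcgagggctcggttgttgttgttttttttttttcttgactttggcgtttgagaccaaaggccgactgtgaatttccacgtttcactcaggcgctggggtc
Mogat1: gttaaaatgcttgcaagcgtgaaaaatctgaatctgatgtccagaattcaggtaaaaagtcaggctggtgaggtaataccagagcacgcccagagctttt

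The promoters also differed in base composition. The Lpin2 promoter with the match was 68.7% G or C with 37 CG dinucleotides in 300 bases, where the medians of all promoters were 52.7% and 7. The Lpin1 promoter had 55.3% and 2, that of Agpat3 59.0% and 15, and that of Mogat1 43.7% and 3. Among the 3 genes of the glycerol phosphate route that rose, the motif was in a window of Lpin2 alone. Of all promoters, 7.15% held CACGTG, and Lpin2 had more windows than Lpin1 or Agpat3.

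The last step, from diacylglycerol to triglyceride, showed no gene that passed. Dgat1, for the enzyme of the sterol acyltransferase type, read 8.24, 8.27 and 8.44 in not-injected and 8.16, 8.30 and 8.32 in injected replicates 1, 2 and 3. The groups overlapped, and the log2 change of -0.05 had a 95% interval from -0.22 to 0.11 (limma, adjusted p = 0.660). Its probe set is of a type that can detect related transcripts.

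Dgat2 encodes the other diacylglycerol acyltransferase, which is related in sequence to the Mogat enzymes. It read 11.91, 11.91 and 11.92 in not-injected and 12.03, 11.94 and 11.98 in injected replicates 1, 2 and 3. Every injected liver was higher, but by at most 0.12 log2 units, and the change of 0.07 had a 95% interval from -0.03 to 0.17 (limma, adjusted p = 0.336). Its second probe set gave 0.06, with overlap. Dgat2 and Mogat2 are direct neighbours on chromosome 7 in the RefSeq gene table, and of this pair Mogat2 rose 3.35-fold while the interval of Dgat2 ends at 0.17. By route, the median log2 change was 0.22 for glycerol phosphate, 0.77 as the midpoint of the 2 opposed Mogat genes, and 0.01 at the shared last step; the difference between routes was not tested.

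The genes that rose also varied together among the injected mice. Mogat2, Lpin1, Lpin2 and Agpat3 were each lowest in injected replicate 1 and highest in replicate 3. The same ordering of the 3 injected arrays was found in 617 of the 1238 genes that rose over the whole table, or 49.8%, so it was shared widely. Over the 6 arrays, the genes most like Mogat2 were Oxct1 (r = 1.00), Slc40a1 (r = 1.00) and Entpd2 (r = 0.999), and those most like Lpin1 were Cuta (r = 0.999), Siae (r = 0.999) and Vps41 (r = 0.998). Such correlations were widely shared, since 705 and 578 genes had r over 0.95 with Mogat2 and Lpin1. The difference between the groups and the ordering of the injected arrays both enter these values, and their parts were not tested.

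Beyond the 9 genes, 45 of 66 listed genes of the surrounding pathway were measured, of which 10 rose and 3 fell, where 9.99% of all genes rose and 7.92% fell. The list of the families' other members and the phosphatidate phosphatases outside the lipins had 1 of 7 higher and 1 lower, with a median log2 change of -0.09. Gpat4, for a glycerol phosphate acyltransferase of the endoplasmic reticulum, fell by 0.29 ± 0.06 (SE, n = 3; limma, adjusted p = 0.0174). Leaving out not-injected replicate 2, not-injected replicate 3 or injected replicate 2 ended this call (highest adjusted p 0.0751), as did the mean of its probe sets (0.0592). Plpp2, for a lipid phosphate phosphatase, rose by 0.48 ± 0.09 (adjusted p = 0.00953), but by 0.22 with the mean of its probe sets (adjusted p = 0.0695).

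Glycerol 3-phosphate supply had 1 of 5 genes higher and 1 lower, with a median of -0.05. Gpd1 encodes the cytosolic glycerol 3-phosphate dehydrogenase, which makes the substrate of the first acyltransferase. It fell from 10.03 ± 0.03 to 9.47 ± 0.20 (SD, n = 3), a log2 change of -0.55 ± 0.09 (SE; limma, adjusted p = 0.00727), and this call held with any 1 array left out. Aqp3, for a glycerol channel, rose by 0.17 ± 0.05 (adjusted p = 0.0399), a call lost when any array but injected replicate 3 was left out (highest adjusted p 0.130), and the mean of its probe sets gave 0.06 (adjusted p = 0.469). Of 3 acyl-CoA synthetase genes measured 0 passed by limma, while 2 had an unadjusted p under 0.05 and 0 passed the unmoderated test. Acsl1 and Acsl3 were listed but not measured. Acsl6 had the smallest p, with a log2 change of -0.34 ± 0.10 (adjusted p = 0.0546). It passed when not-injected replicate 2 was left out (adjusted p = 0.0387) and when injected replicate 3 was (0.0196). Over the 6 arrays Acsl6 read 4.52 to 5.09 and Aqp3 5.72 to 5.95, below the array medians of 6.92 to 6.93.

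Genes that draw diacylglycerol or phosphatidate into phospholipids rose in several cases. In the phosphatidylcholine and phosphatidylethanolamine branch, 3 of 8 genes rose and 0 fell by limma, against 9.99% and 7.92% of all genes. The median was 0.02, and 5 passed the unmoderated test, counted without regard to direction. Chka, for the choline kinase that starts phosphatidylcholine synthesis, averaged 7.10 ± 0.07 in not-injected and 8.37 ± 0.07 in injected livers (SD, n = 3). It rose 2.41-fold, by 1.27 ± 0.06 on the log2 scale (SE; limma, adjusted p = 4.59e-05). Pcyt1a, for the rate-limiting enzyme of that pathway, rose by 0.43 ± 0.07, and Cept1, for a transferase of the final step, by 0.21 ± 0.05. With the mean of its probe sets Pcyt1a changed by 0.23 and still passed (adjusted p = 0.0273). Pcyt1a and Cept1 were named after their values were seen, and the Cept1 call ended when not-injected replicate 1 or 3 was left out (highest adjusted p 0.0755). Chpt1, for another transferase of the final step, was lower in every injected liver but did not pass (-0.15 ± 0.04 SE; limma, adjusted p = 0.0504). It was also named after its value was seen.

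In the list on the CDP-diacylglycerol branch, 3 of 7 genes rose and 0 fell, against 9.99% and 7.92% of all genes, with a median of 0.14. Cdipt, for the synthase of phosphatidylinositol, rose by 0.53 ± 0.06 (SE, n = 3; limma, adjusted p = 9.22e-04). Cds2, for the enzyme that makes CDP-diacylglycerol from phosphatidate, rose by 0.41 ± 0.04, and Ptdss2 by 0.76 ± 0.08; these genes were named after their values were seen. With the mean of their probe sets Cds2 changed by 0.25 and Ptdss2 by 0.35, and both passed (adjusted p = 0.00455 and 0.00383). Ptdss2 encodes a phosphatidylserine synthase that works by base exchange on existing phospholipid, so it does not itself use CDP-diacylglycerol. Of 4 diacylglycerol kinase genes 0 passed by limma, 2 had an unadjusted p under 0.05 and 0 passed the unmoderated test. Dgka had the smallest p, at -0.18 ± 0.05 (adjusted p = 0.0590; 0.0812 to 0.162 with 1 array left out).

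**Figure D4:**
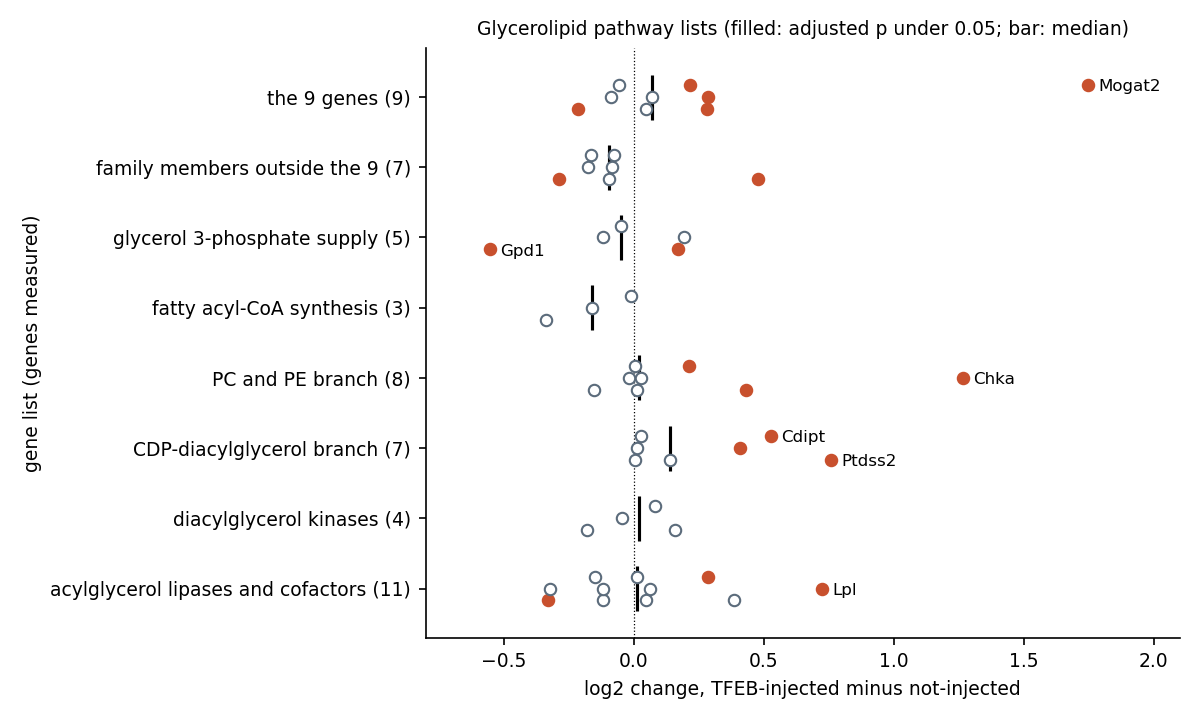
Log2 change, TFEB-injected minus not-injected (x axis), of the lead probe set of each gene in the 9-gene set and in 7 surrounding pathway lists (rows); filled circles passed an adjusted p of 0.05 over all genes (limma, 3 arrays a group), vertical bars are medians. Mogat2 (1.75) and Chka (1.27) lie farthest to the right and Gpd1 (-0.55) farthest to the left.

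Some acylglycerol lipases release the monoacylglycerol and diacylglycerol used above, and others remove them. Among 11 such lipases and their cofactors, 2 rose and 1 fell, with a median of 0.01. Lpl, for lipoprotein lipase, averaged 9.16 ± 0.10 in not-injected and 9.89 ± 0.15 in injected livers (SD, n = 3). It rose 1.65-fold, by 0.72 ± 0.09 on the log2 scale (SE; limma, adjusted p = 0.00150). Ces1d, for a carboxylesterase of liver, fell by 0.33 ± 0.05 (adjusted p = 0.00470). Pnpla2, for the triglyceride lipase of lipid droplets, rose by 0.28 ± 0.06 and was named after its value was seen. Leaving out not-injected replicate 1, not-injected replicate 2 or injected replicate 2 ended the call (highest adjusted p 0.0709), and the mean of its probe sets gave 0.10 (0.394). Mgll, for monoacylglycerol lipase, which removes the substrate of the Mogat enzymes, had a log2 change of -0.12 ± 0.09 (adjusted p = 0.437) and was also named after its value was seen.

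Some markers of other cells also differed between the groups. Of 8 macrophage markers, 5 rose (Cd68, Clec4f, Vsig4, Cd5l and Csf1r) and 0 fell, where 9.99% of all genes rose and 7.92% fell. The median log2 change of the 8 markers was 0.49. Their summed linear level ran from 6708 to 6942 in not-injected and from 8953 to 10850 in injected livers. All 8 had an unadjusted p under 0.05, a cut whose share over all genes was not counted. Over injected replicates 1, 2 and 3, Csf1r read 11.38, 11.25 and 11.08, and Vsig4 read 10.57, 10.52 and 10.40. Adgre1, Marco, Lyz2 and also Lpl went down in the same order, whereas Mogat2, Lpin1, Lpin2 and Agpat3 went up. Clec4f went up too (9.79, 9.82 and 9.83), and Cd68 and Cd5l were highest in replicate 2. The part of macrophages in the values of the 9 genes was not tested. Macrophages also express Lpl, and their part in the Lpl value was not tested either. Of 7 sinusoidal endothelial markers, Stab2 (1.42) and Lyve1 (0.89) rose and 0 fell, with summed levels of 2989 to 3193 and 3585 to 4286. The median log2 change of this list was -0.01. The other 5 (Pecam1, Cdh5, Kdr, Tek and Clec4g) changed by -0.09 to 0.02 and did not pass. Of 3 adipocyte and 7 skeletal muscle markers 0 passed by limma, 0 had an unadjusted p under 0.05, and 0 passed the unmoderated test. Adipoq, for an adipocyte hormone, read 3.81 to 4.02 over the 6 arrays, and summed levels were 120 to 128 against 115 to 124 for adipocytes and 339 to 379 against 337 to 351 for muscle.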

How the data were processed

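Liver RNA of 6 mice was measured on 6 arrays of an Affymetrix mouse platform, 3 a group by the labels. The authors deposited log2 expression values, made with RMA and affy per the submitters' processing notes, which name no version. RMA sets the arrays to 1 distribution, which hides shifts in total RNA, and it compresses changes of dim genes such as Mogat1. Of 22690 probe sets, 20393 had 1 gene symbol (0 needed updating, and 20364 gene IDs matched the RefSeq table), 691 several and 1606 none. The test used the lead probe set of each of 12393 genes, chosen from 20380 probe sets that are not controls.

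Groups were compared with limma 3.58.1 (R 4.3.3, lmFit and eBayes, no covariate), with Benjamini-Hochberg adjustment over all genes. The number of arrays limits the precision. P-values rest on the spread between 3 mice a group, with the variance of each gene drawn by eBayes toward that of all genes. The unmoderated test uses the variance of each gene alone, and 1486 of the 12393 genes passed it. The share of all genes with an unadjusted p under 0.05 was not counted, so list counts at that cut have no baseline. The script was tested on simulated data. The members and lists were chosen with earlier results of these data known. Named genes were all members, the called gene with the smallest p of each list in each direction (or the smallest p where none passed), and the 3 genes most correlated with the called member of smallest p in each route. The labels do not say whether the replicate numbers pair mice. Same-numbered arrays showed no strong shared deviation (correlations 0.01, -0.13 and -0.11), which cannot exclude a pairing. Alternatives were other probe set rules, scalings, a filter on low levels, other variance models, thresholds, a replicate block and each array left out. Figures used matplotlib 3.10.9 (Python 3.11.15).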

Additional observations from a re-analysis of the deposited data

How the results depend on the processing

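All log2 changes of the 5 genes that passed kept their sign under every alternative run. Mogat2 passed throughout, while the smaller calls did not. With all genes tested, 2219 were called; the count was 4117 with array weights, 1053 at a threshold of 0.01, and 1229 to 2409 with 1 array left out. The 4 genes that rose became 1 with the unmoderated test and 1 at a threshold of 0.01, and 1 to 4 with 1 array left out. The 1 that fell (Mogat1) became 0 with cyclic loess, with low genes left out (which removes it), with an intensity trend and robust prior, with the replicate block, with the unmoderated test, at 0.01, and in each of the sets with 1 array left out (0 to 0). Where no construction of the alternative is named, the cause was not tested. The numbers share no origin in the labels, and with the replicate number as a block 1533 genes passed, 3 of the 9 rose and Agpat3 was lost (adjusted p = 0.0562). The block also ended the calls of Gpat4 (0.0578), Aqp3 (0.0963) and Cept1 (0.0701) and gave one to Acsl6 (0.0250). Outside the 9 genes, the unmoderated test ended the calls of Gpd1 (adjusted p = 0.0644), Plpp2 (0.0701), Gpat4 (0.0668), Pnpla2 (0.0593) and Csf1r (0.0501). Median changes of the routes moved by less than the spread between arrays, and neither scaling shifted the median of all genes by more than 0.02.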
